A study of Rattus norvegicus with 8 samples.

Results

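Oxt and Avp encode the precursors of oxytocin and vasopressin, the hormones of the magnocellular neurosecretory neurons. They were picked by gene symbol, with earlier results of these data known. Both were found, each with 1 probe set naming no other gene, among 14506 genes measured. Hypothalamic RNA of 21-day-old female Sprague-Dawley rats was hybridised to 8 Affymetrix arrays, 2 for each of 4 groups. Con-s and Con-l are offspring of normally fed mothers, with saline or leptin given, and CR-s and CR-l are offspring of calorie-restricted mothers, with saline or leptin given. Restricted mothers had 50% fewer calories from gestation day 11 to 21 and also after birth, and the postnatal treatment lasted from day 2 to day 8. The sample titles give only diet, treatment and replicate letter, and do not say whether the mothers or the offspring were dosed. Each group has a replicate A and a replicate B. The series' design text has Con-r where the titles have Con-l, and the titles were followed. The labels do not say whether a sample is 1 animal, a litter or a pool, so p-values measure only the spread between these samples.

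Both hormones are made in large neurons of the paraventricular and supraoptic nuclei, which send axons to the posterior pituitary and release the peptides into blood. Oxytocin drives milk ejection and uterine contraction, and oxytocin neurons that project within the brain reduce feeding. Vasopressin makes the kidney retain water, and Avp is also transcribed in the suprachiasmatic nucleus, the circadian pacemaker. Each precursor carries its nonapeptide and a neurophysin, the carrier protein with which the peptide is packed in granules. The neurophysin parts of both precursors are very similar, and the array's probe sequences are not used here, so cross-hybridisation between the genes was not tested.

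Oxt and Avp are direct neighbours in the rat genome, with 0 genes between them in RefSeq's gene order, and they are read from opposite strands toward each other. The 250 bases before each start site are shown because the genes are adjacent and only Oxt passed the test for diet given below. Both sequences come from RefSeq (GRCr8), and each runs 5′ to 3′ on the strand of its gene. Oxt lies on the plus strand at chr3:138235504-138235753 and Avp on the minus strand at chr3:138248523-138248772. Capitals mark the matches of 5 short motifs searched on both strands.
Oxt: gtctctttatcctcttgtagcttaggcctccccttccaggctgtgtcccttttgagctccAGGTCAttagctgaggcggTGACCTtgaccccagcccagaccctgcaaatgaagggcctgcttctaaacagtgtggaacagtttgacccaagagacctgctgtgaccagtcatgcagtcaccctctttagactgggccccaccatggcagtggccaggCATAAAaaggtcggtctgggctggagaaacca
Avp: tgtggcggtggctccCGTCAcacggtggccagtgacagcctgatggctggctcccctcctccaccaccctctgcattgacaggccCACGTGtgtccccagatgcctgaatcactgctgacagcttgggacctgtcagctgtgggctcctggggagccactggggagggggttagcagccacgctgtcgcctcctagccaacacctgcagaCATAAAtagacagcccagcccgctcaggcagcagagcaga

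The Oxt window holds AGGTCA, the core that many nuclear receptors bind, on each strand: once at 190 to 185 bases before the start and once, as TGACCT, at 171 to 166. Of 33469 RefSeq promoter windows of this length, 14.1% hold that motif, and the Avp window does not. The Avp window holds CACGTG, an E-box of the kind bound by the clock proteins, at 165 to 160 bases before the start, as do 5.59% of windows. It also holds CGTCA, the reverse complement of TGACG from the cAMP response element (235 to 231 bases, 18.2% of windows), and the Oxt window has neither. Neither window contains TATAAA (12.9% of windows), and both contain CATAAA, at 32 to 27 bases in Oxt and 40 to 35 bases in Avp (11.4% of windows). The motifs were picked after the sequences had been read, a match is only a match of letters, and the longest run of bases the windows share on their own strands is 8.

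Some transcripts typical of hypothalamus read above the median probe set, and others below it. On the log2 intensity scale Pmch, which encodes a lateral hypothalamic peptide, had a mean of 11.23 over the 8 arrays, Trh, the gene of a releasing hormone, 9.66, Hcrt, the orexin gene, 9.44, and Otp and Sim1, transcription factors needed to form the paraventricular nucleus, 8.33 and 7.39. The median probe set lay at 6.82, and probe sets differ in brightness for reasons other than abundance. Below it were Pomc, with group means of 6.22 to 6.51, and Ghrh, with 5.89 to 6.12. Prkcd, a marker of thalamus, had group means of 8.98 to 9.63, so these levels alone do not identify the tissue. Median intensities of the arrays ran from 111.8 to 114.1, and replicates correlated at 0.995 across probe sets. CR-s replicate B had the narrowest spread, an interquartile range of 2.92 on the log2 scale against 3.01 to 3.08 on the others. The values below are log2 RMA intensities, which rank the same probe set across arrays and do not compare Oxt with Avp in abundance.

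Oxt was highest in saline-treated control offspring and lowest in the restricted groups. It measured 11.70 and 11.45 in Con-s replicates A and B, 11.28 and 11.29 in Con-l, 10.96 and 11.08 in CR-s, and 11.04 and 11.10 in CR-l. All 4 CR arrays lay below all 4 Con arrays: the highest CR value was 11.10 and the lowest Con value 11.28. Such a separation, downward in CR, was found in 6.67% of all genes. Group means were 11.57 ± 0.18 (SD, n = 2) for Con-s, 11.28 ± 0.0054 for Con-l, 11.07 ± 0.042 for CR-l and 11.02 ± 0.085 for CR-s. As geometric mean intensities these are 3049, 2492, 2156 and 2077.

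Avp did not follow that order. It measured 9.96 and 9.92 in Con-s replicates A and B, 9.75 and 10.06 in Con-l, 9.91 and 9.72 in CR-s, and 9.96 and 10.16 in CR-l. The range of the CR arrays (9.72 to 10.16) enclosed that of the Con arrays (9.75 to 10.06). Group means ran from 10.06 ± 0.14 (SD, n = 2) in CR-l through 9.94 ± 0.030 in Con-s and 9.91 ± 0.22 in Con-l to 9.82 ± 0.13 in CR-s. The higher CR-s array (9.913) lay just below the lower Con-s array (9.921), and the CR-s arrays lay below those of CR-l. With 2 arrays against 2 the smallest exact p is 0.333, and the share of all genes so separated was not counted. The other pairs of groups overlapped, and no neighbours in the order of group means differed beyond their spread.

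**Figure D1:**
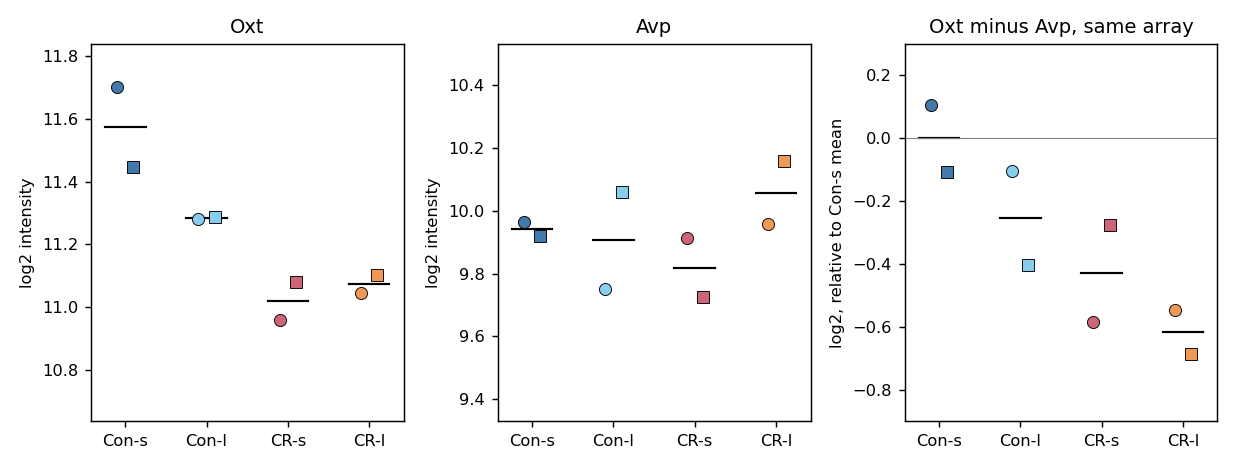
Log2 intensity of Oxt (left) and Avp (middle) on each array, and the within-array difference Oxt minus Avp relative to its Con-s mean (right), by group. Circles are replicate A, squares replicate B and lines group means; the 4 CR values of Oxt (10.96 to 11.10) sit below the 4 Con values (11.28 to 11.70), while those of Avp overlap.

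Replicates were not equally close for both genes. The residual SD around group means was 0.10 for Oxt, and 63.1% of genes had a smaller one. For Avp it was 0.15, with 83.1% of genes smaller, and the median over all genes was 0.084. Oxt replicates differed most in Con-s (A minus B 0.26) and least in Con-l (-0.0076), Avp replicates most in Con-l (-0.31) and least in Con-s (0.043). The groups in which the hormones varied were thus different ones, and the deviations of both genes from their group means correlated at r = 0.020 over the 8 arrays. Across all arrays Pearson's r between Oxt and Avp was 0.055 and Spearman's rho 0.33, a description of 8 arrays that share groups.

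The averaged diet comparison asks how restricted offspring differed from controls over both treatments, with 4 arrays on each side. Oxt fell 1.30-fold in restricted offspring, by 0.38 on the log2 scale (SE 0.066, 95% confidence interval -0.54 to -0.23, limma adjusted p = 0.0496). Avp differed by 0.015 (SE 0.086, interval -0.19 to 0.22, adjusted p = 0.958). That interval spans a level 1.14-fold lower to 1.16-fold higher, so a fall of Avp as large as the estimate for Oxt lies outside it. Of the 2 genes 1 was called, where 1.21% of all genes were called and 0.882% were called lower in CR. Oxt was 174th by p among 14506 genes and close to the threshold, and 1.26% of genes had a larger difference.

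The call for Oxt ended when any single array was left out. Without 1 array the log2 difference stayed between -0.45 and -0.32, with adjusted p from 0.0925 (without Con-s replicate B) to 0.164 (without CR-l replicate A). In an exact two-sided permutation test of the 4 against 4 arrays, Oxt gave p = 0.0286, the smallest that 70 relabellings allow, and 0.171 adjusted over the 6 tests of that family. No adjusted value could pass unless several of the 6 tests lay at that smallest p, so the adjusted value decides nothing here. Avp gave an exact permutation p of 0.943.

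Whether restriction moved the genes by unequal amounts was tested on the difference Oxt minus Avp within each array. Relative to its Con-s mean it was 0.11 and -0.11 in Con-s, -0.10 and -0.40 in Con-l, -0.58 and -0.28 in CR-s, and -0.55 and -0.69 in CR-l. CR-s replicate B was the CR array that lay above Con-l replicate B, and the arms otherwise did not overlap. The difference was lower by 0.40 in CR than in Con, with an exact permutation p of 0.0571 (adjusted p = 0.171). Oxt by diet, at the smallest possible exact p of 0.0286, also had an adjusted p of 0.171. The adjusted value therefore cannot decide the question, and an unequal change was neither established nor excluded by this test.

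The diet effect was then read under each treatment. Under saline Oxt stood at a log2 difference of -0.55 in CR-s against Con-s (SE 0.093, interval -0.77 to -0.33, adjusted p = 0.255), a 1.47-fold lower estimate, and Avp at -0.12 (SE 0.12, interval -0.41 to 0.16, adjusted p = 0.831). Under leptin, CR-l against Con-l, the Oxt difference was -0.21 (interval -0.43 to 0.0092, adjusted p = 0.372) and the Avp difference 0.15 (interval -0.13 to 0.44, adjusted p = 0.628). Neither gene passed. Limma called 0% of genes under saline, with 1233 genes at an unadjusted p under 0.05, and 0.0207% under leptin. With trend and robust settings Oxt passed under saline (adjusted p = 0.0177), as did 66 genes in all.

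With leptin the Oxt estimate was lower in control offspring and nearly level in restricted offspring. Con-l against Con-s gave a log2 difference of -0.29 for Oxt (SE 0.093, interval -0.51 to -0.072, unadjusted p = 0.0161, adjusted p = 0.997), and CR-l against CR-s gave 0.053 (interval -0.17 to 0.27, adjusted p = 0.935). The control estimate rests on the spread within Con-s: it was -0.16 without Con-s replicate A and -0.42 without Con-s replicate B. The 2 leptin effects differed by 0.34 (interaction, SE 0.13, interval 0.035 to 0.65, unadjusted p = 0.0337, adjusted p = 0.898) and did not pass. The interaction is also the diet difference under leptin minus that under saline, so it shares the Con-s and CR-s arrays with the latter.

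Avp had its widest gap between CR-l and CR-s, a log2 difference of 0.24 (SE 0.12, interval -0.047 to 0.52, adjusted p = 0.808). In controls leptin gave -0.037 (interval -0.32 to 0.25, adjusted p = 0.997), and the interaction was 0.28 (SE 0.17, adjusted p = 0.9002). Averaged over diets, leptin gave 0.10 for Avp (interval -0.10 to 0.30, adjusted p = 0.916) and -0.12 for Oxt (interval -0.27 to 0.036, adjusted p = 0.913), with exact permutation p of 0.343 and 0.514. In these 4 tests of leptin limma called 0% of genes: 849 genes had an unadjusted p under 0.05 in restricted offspring, 608 in controls, 707 in the average and 747 in the interaction. Trend and robust settings also called 0 in each.

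Against saline controls, restricted offspring of the leptin group also had a low Oxt estimate. CR-l stood at a log2 difference of -0.50 from Con-s (SE 0.093, interval -0.72 to -0.28, adjusted p = 0.139), where CR-s had stood at -0.55. It did not pass, in a comparison that called 0.0138% of genes, and passed with trend and robust settings (adjusted p = 0.0128) and among the upper 60 percent of genes by mean (adjusted p = 0.0437). Avp stood at 0.12 (interval -0.17 to 0.40, adjusted p = 0.763). Ordered by level, Oxt ran from Con-s through Con-l and CR-l to CR-s, and no step between neighbours passed the adjusted threshold.

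**Figure D2:**
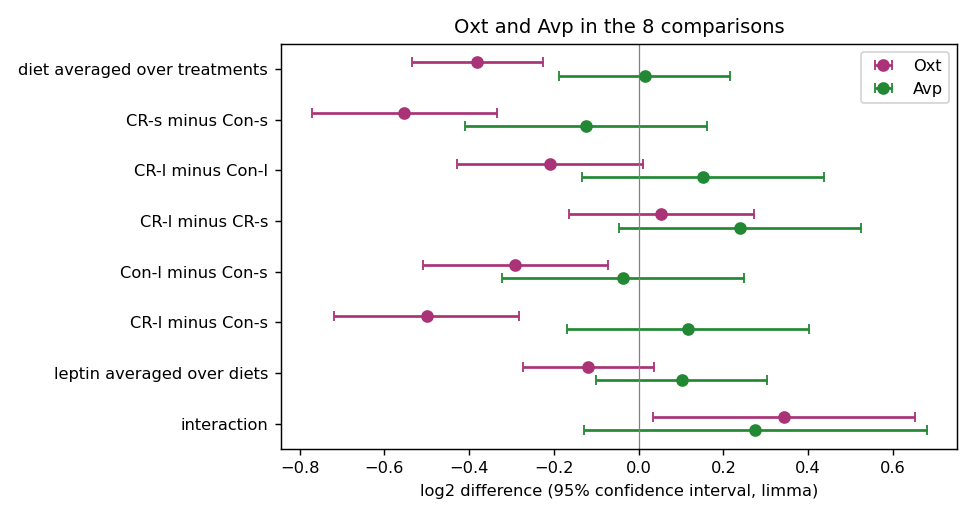
Log2 difference of Oxt and Avp with its 95% confidence interval (limma) in each of the 8 comparisons. The intervals of Oxt lie below 0 for the averaged diet, CR-s minus Con-s, Con-l minus Con-s and CR-l minus Con-s, and above 0 for the interaction, while each interval of Avp spans 0.

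The other genes of the system were read from 6 lists of 76 genes in all, of which 68 were measured. None of the 68 passed in any of the 8 comparisons, so only values are given for them. In the averaged diet comparison 37 were higher and 31 lower (median log2 difference 0.026, against 0.00062 over all genes), and 15 (22.1%) had an unadjusted p under 0.05, as did 15.8% of all genes. All CR arrays lay below all Con arrays for 6 of the 68, and above for 5 (8.82% and 7.35% of the list), where 6.67% and 4.52% of all genes did so. Only 1 of the 68, Aqp4, the astrocyte water channel, had a lower estimate than Oxt.

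The receptors were spread around 0. Avpr2, the receptor through which vasopressin acts on the kidney, had a log2 difference of -0.18 (SE 0.060, adjusted p = 0.220). Its probe set read 6.18 and 6.18 in Con-s, 6.09 and 6.14 in Con-l, 5.86 and 6.03 in CR-s, and 6.09 and 5.91 in CR-l, below the median probe set throughout. Avpr1a, the main vasopressin receptor of brain, stood at 0.12 (SE 0.047, adjusted p = 0.275), with 0.011 under saline and 0.23 under leptin. Avpr1b, known from pituitary corticotrophs, stood at 0.11 (adjusted p = 0.494), and Oxtr, the oxytocin receptor, at -0.017 (SE 0.10, adjusted p = 0.961). Oxtr replicates of CR-s read 7.19 and 6.74, a wider gap than between any of the group means.

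Of the genes that cut, amidate and pack the precursors, 9 of 15 had a higher mean in CR (median 0.052), and none passed. Under saline 7 were higher and 8 lower (median -0.0029), and under leptin 10 were higher and 5 lower (median 0.090). Chga, a granule protein, stood at 0.12 (SE 0.043, adjusted p = 0.227), Cpe, which trims the cut peptide's end, at 0.12 (SE 0.043, adjusted p = 0.253), and Prep, a peptidase that degrades small peptides, at 0.13 (SE 0.055, adjusted p = 0.303). These 3 were the members with every CR array above every Con array (20% of the list, against 4.52% of all genes). Cpe measured 11.85 and 11.83 in Con-s, 11.85 and 11.90 in Con-l, 11.99 and 11.95 in CR-s, and 12.01 and 11.92 in CR-l. Pam, the enzyme that amidates both hormones, stood at 0.082 (adjusted p = 0.409) and Pcsk2, a convertase, at 0.087 (adjusted p = 0.556). Lnpep, an aminopeptidase that breaks down oxytocin and vasopressin, stood at -0.010 (adjusted p = 0.938). The lowest members, Furin and Cadps, both stood at -0.081 (adjusted p = 0.480 and 0.424).

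Among 13 measured regulators 7 were lower and 6 higher (median -0.016). Creb3l1, a membrane-bound transcription factor that activates Avp transcription, had the smallest p, at a log2 difference of -0.30 (SE 0.077, adjusted p = 0.131). Its values were 7.37 and 7.33 in Con-s, 7.28 and 7.55 in Con-l, 7.05 and 7.13 in CR-s, and 6.96 and 7.20 in CR-l, with no overlap between the arms. All CR arrays lay below all Con arrays for 4 of the 13, Creb1, Jund and Nr3c2 included. That is 30.8% of the list, against 6.67% of all genes. Creb1, the cAMP-response factor, stood at -0.17 (SE 0.046, adjusted p = 0.144) and Jund, an AP-1 subunit, at -0.16 (SE 0.044, adjusted p = 0.144). Of the nuclear receptors, the mineralocorticoid receptor Nr3c2 stood at -0.13 (adjusted p = 0.408). Esr2, the oestrogen receptor of oxytocin neurons, stood at 0.12 (adjusted p = 0.682), and Esr1, the other oestrogen receptor listed, at -0.16 (adjusted p = 0.612). The thyroid hormone receptors Thra and Thrb stood at 0.082 and -0.016, and none of these passed.

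Of 12 genes tied to release and excitability 6 were higher and 6 lower (median 0.0031). Oprk1, the receptor of dynorphin, which magnocellular vasopressin neurons co-release, stood at 0.26 (SE 0.057, adjusted p = 0.0952), with 0.074 under saline and 0.44 under leptin. Aqp4 stood at -0.42 (SE 0.083, adjusted p = 0.0702). All CR arrays lay below all Con arrays for Aqp4 and Slc12a5, 2 of the 12 (16.7%, against 6.67% of all genes). Nos1, the neuronal nitric oxide synthase of magnocellular cells, stood at -0.13 (adjusted p = 0.267) and Slc12a5, the chloride exporter that sets the sign of GABA responses, at -0.090 (adjusted p = 0.345). The osmosensing channel Trpv1 stood at 0.025 (adjusted p = 0.871).

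Peptides made in or beside magnocellular neurons gave no shared direction, with 6 of 13 higher and 7 lower (median -0.0051). Adcyap1, which encodes PACAP, stood at 0.21 (SE 0.053, adjusted p = 0.125), with 0.010 under saline and 0.41 under leptin. It measured 9.53 and 9.42 on Con-s arrays, 9.24 and 9.12 on Con-l arrays, 9.44 and 9.52 on CR-s arrays, and 9.54 and 9.63 in CR-l. The Con-l arrays were its lowest, as they were not for Oxt. Cartpt stood at -0.22 (SE 0.060, adjusted p = 0.145), Apln, the apelin gene, at 0.10 (adjusted p = 0.338), Trh at 0.17 (adjusted p = 0.541), Crh at -0.029 (adjusted p = 0.827), Gal at -0.033 (adjusted p = 0.897) and Pdyn at -0.0051 (adjusted p = 0.981).

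**Figure D3:**
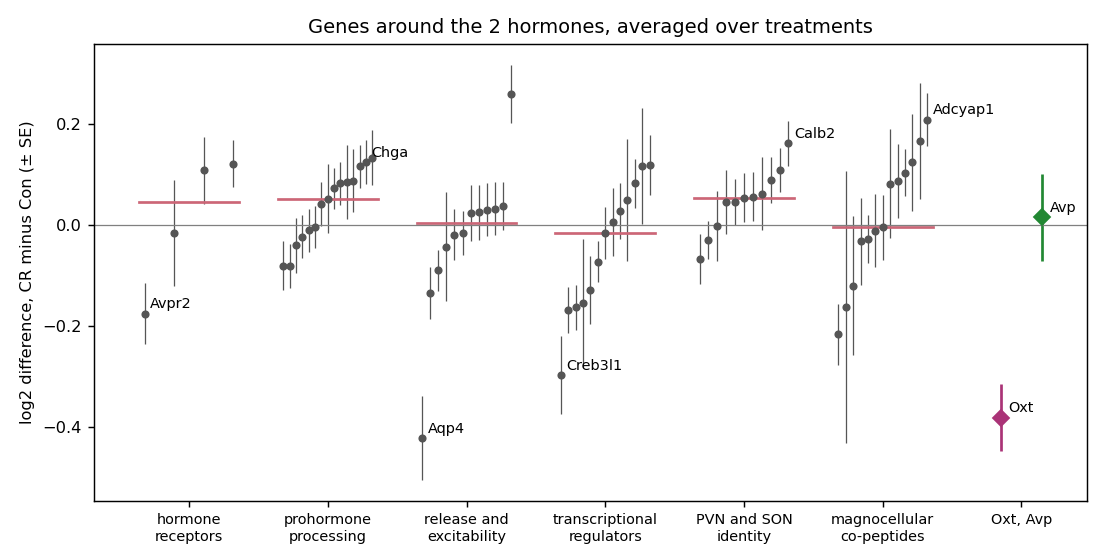
Log2 difference CR minus Con averaged over treatments (points, with SE) for the measured genes of 6 lists and for Oxt and Avp; red lines are list medians, and the gene with the smallest p of each list is named. PVN and SON are the paraventricular and supraoptic nuclei; Oxt, at -0.38, lies below each listed gene but Aqp4, at -0.42.

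In whole-tissue RNA, fewer cells of a type and less RNA per cell cannot be told apart, and so the markers of the nuclei that hold these neurons are given beside Oxt. Of 11 identity genes 8 were higher in CR and 3 lower (median 0.054), none passing: Calb2 stood at 0.16 (SE 0.045, adjusted p = 0.153), Arnt2, the partner of Sim1, at 0.11 (SE 0.044, adjusted p = 0.291), Sim1 at 0.088 (adjusted p = 0.410) and Pou3f4 at -0.067 (adjusted p = 0.568). Relative to Con-s the mean of this list ran from -0.062 to -0.045 in Con-l, from 0.017 to 0.035 in CR-s and from 0.0093 to 0.021 in CR-l. The Con-l arrays were thus the lowest for this list, and Calb2 is also a member of the thalamic list given below. Whether cell number contributed to the Oxt result was not tested. Suprachiasmatic markers, from a nucleus that also transcribes Avp, had 6 of 8 genes higher (median 0.022), and none passed. Per2 stood at 0.25 (adjusted p = 0.1002) and Calcr at 0.40 (adjusted p = 0.192). The 2 lower genes were Vip at -0.12 (adjusted p = 0.728) and Prok2 at -0.019, and Vipr2, Six6, Lhx1 and Grp lay between 0.0061 and 0.042. The mean of the list ran from 0.10 to 0.17 in CR-l and from -0.040 to 0.092 on the other arrays.

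Markers of other cell types differed between the diet groups. Of 9 oligodendrocyte genes 9 were lower in CR and 2 passed (Ermn at -0.54 and Cnp at -0.27), and the list mean ran from -0.28 to -0.14 on the CR arrays and from -0.057 to 0.11 on the Con arrays. Of 12 meningeal and vessel genes 10 were lower and 4 passed, with list means of -0.33 to -0.22 in CR and -0.030 to 0.23 in Con. Of 5 red blood cell genes 5 passed lower, with means of -1.65 to -1.13 in CR and -0.32 to 0.24 in Con. Of 9 astrocyte genes 5 were lower and 1 passed (Gfap at -0.94). Pan-neuronal genes had 9 of 17 higher and 8 lower (median 0.0057), and with each array scaled to their mean Oxt stood at -0.38 (adjusted p = 0.0505) and Avp at 0.014. The part of the glial, meningeal and blood markers in the Oxt result was not tested.

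Markers of neighbouring tissue (pituitary, thalamus and striatum), given as a check of the dissection, varied between single arrays. Pituitary genes had 6 of 10 higher and 4 lower (median 0.037), and their mean reached 0.40 on the higher Con-l array against -0.056 to 0.13 on the others. The gene that stood out was Cga, with a Con-l mean of 7.69 (SD 2.12) against 5.93 to 5.94 in the other groups. Con-l minus Con-s was 1.76 for Cga, where the median of the pituitary list was 0.030. Thalamic markers had 1 of 6 higher, with means between -0.36 and 0.47, and striatal markers 6 of 9, with means between -0.065 and 0.31. Within the hypothalamus, ventromedial and lateral markers had 4 of 6 higher (median 0.060). Of 9 arcuate markers 6 were higher and 3 lower (median 0.073). Npy (0.75) and Agrp (0.70) passed, both higher in CR. Cartpt at -0.22 (adjusted p = 0.145) and Pomc at -0.18 (adjusted p = 0.161) were lower and did not pass. The lowest intensity in any of these lists was 15.4, in the pituitary list. Whether dissection contributed to the values of Oxt and Avp was not tested.

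**Figure D4:**
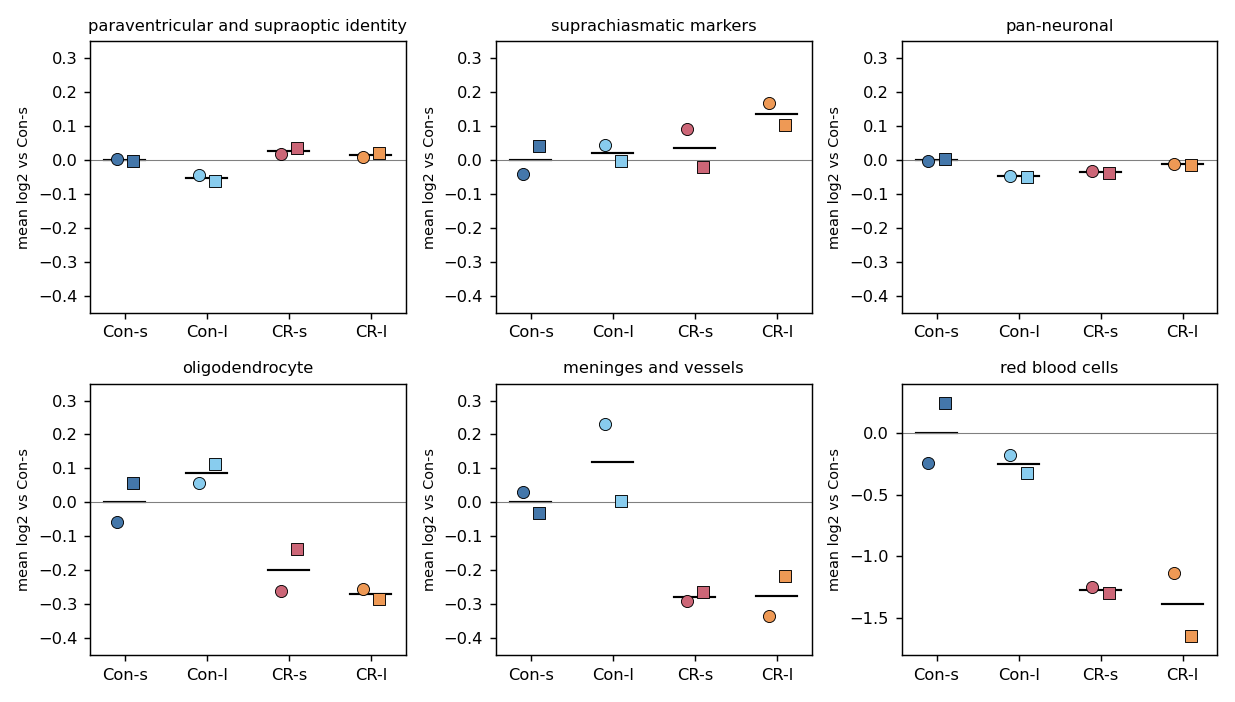
Mean log2 intensity of 6 marker lists on each array relative to the Con-s mean, by group; circles are replicate A, squares replicate B, lines group means, and the red blood cell panel has a wider axis. The paraventricular and supraoptic list stays between -0.062 and 0.035, while the oligodendrocyte, meningeal and red cell lists are lower on the CR arrays.

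The genes next to the locus gave no diet difference that passed. Of the 4 nearest on each side 6 were measured. Mrps26, a mitochondrial ribosomal protein gene beside Oxt, stood at -0.16 (SE 0.17, adjusted p = 0.714), and Ubox5, a ubiquitin ligase gene beside Avp, at -0.023 (SE 0.064, adjusted p = 0.903). The other 4 (Vps16, Ptpra, Lzts3 and Ddrgk1) lay between -0.076 and -0.012. All 6 estimates were below 0, and each interval included 0.

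The genes whose pattern over the 8 arrays was most like that of Oxt were sought among the 8703 other genes in the upper 60 percent by mean. By Pearson's r these were Dynlrb1 (0.97), Chid1 (0.96), Zfp511 (0.95), Got1 (0.95) and Golph3 (0.95), and the most opposite were Chic2 (-0.95), Spock3 (-0.94) and Ocln (-0.94). Their diet differences were small beside that of Oxt, from -0.19 (Chid1, adjusted p = 0.109) to 0.15 (Chic2, adjusted p = 0.168), and none passed. For Avp the most alike were Pcdhb4 (0.94), Vgf (0.92), Abl2 (0.92), Ctsb (0.92) and Gpm6b (0.92), and the most opposite Scg3 (-0.94), Zfp24 (-0.92) and Bcat1 (-0.90). Vgf, which encodes a secreted granule peptide of neuroendocrine cells, measured 9.25 and 9.20 in Con-s, 9.12 and 9.27 in Con-l, 9.27 and 9.03 in CR-s, and 9.32 and 9.42 in CR-l. With so many genes and 8 arrays, 33 genes had r above 0.9 with Oxt and 10 with Avp, and no p is attached.

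**Figure D5:**
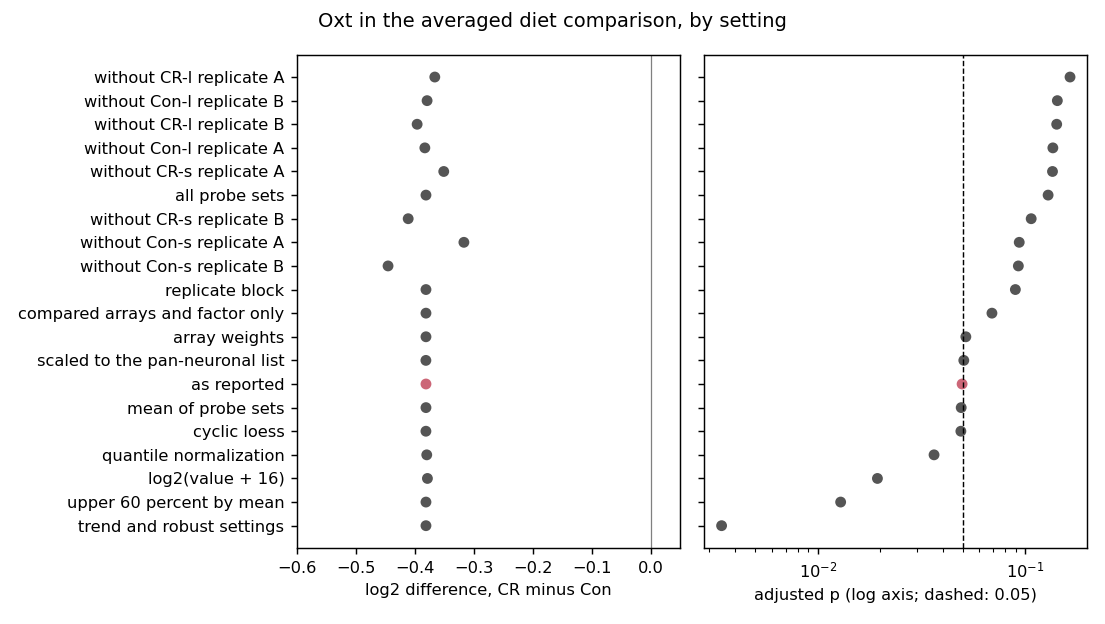
Log2 difference of Oxt in the averaged diet comparison (left) and its adjusted p on a log axis (right) under each setting, ordered by p, with the reported setting in red. The difference stays between -0.45 and -0.32, while 13 of 19 alternatives lie right of the dashed threshold at 0.05.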

How the data were processed

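The authors deposited linear intensities, 1 per probe set and array, made with RMA in Affymetrix Expression Console, per the submitters' processing notes. Software version and genome build are not given in the sources used here. Values were log2-transformed and not normalized again. Of 29215 probe sets, 15310 carry 1 gene symbol and 323 several; symbols were updated through Entrez numbers (15279) or accessions (6). The brightest probe set was kept for each of 14506 genes.

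Limma 3.58.1 in R 4.3.3 (lmFit, eBayes) fitted 4 group means to all 8 arrays, with 4 residual and 3.21 prior degrees of freedom. Tests were two-sided, with Benjamini-Hochberg adjustment over all genes and a threshold of 0.05; the script was tested on simulated data. Exact permutation tests were adjusted over 6 tests. With 2 arrays against 2 the smallest exact p is 0.333, so none was run there. Array number limits the precision. The members and the 17 gene lists were chosen with earlier results of these data known. Named were Oxt and Avp, list members by smallest unadjusted p or by role, the 4 genes on each side of the locus, and the 5 most and 3 least alike. Alternatives were another normalization, filter, offset, probe set rule, model, weights or scale reference, a replicate block and leaving out each array. Samples with the same letter did not deviate together (correlations -0.061 to 0.11), so the letters were not treated as pairs.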

Additional observations from a re-analysis of the deposited data

How the results depend on the processing

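In the averaged diet comparison Oxt kept its direction under all 19 alternatives and was past the threshold in 6. With all 8 arrays it stood at -0.38 each time, and the adjusted p was 0.0895 with the replicate block, 0.0505 scaled to the pan-neuronal list, 0.129 with all probe sets tested, 0.0690 with the compared factor only and 0.0517 with array weights. Without 1 array it ran from -0.45 to -0.32 and never passed. Oxt passed with trend and robust settings in CR-s minus Con-s (-0.55) and CR-l minus Con-s (-0.50, also among the upper 60 percent by mean). Avp never passed; its sign in Con-l minus Con-s turned when scaled to the pan-neuronal list (0.011). Without 1 array some small estimates changed sign: Avp by diet (-0.063 to 0.092, and -0.058 to 0.086 as a plain difference of arms), Avp in CR-l minus Con-l (-0.0019 to 0.31) and Con-l minus Con-s (-0.19 to 0.12), Oxt in CR-l minus CR-s (-0.0069 to 0.11), and Oxt by leptin as a plain difference (-0.23 to 0.017).

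The 175 genes called by diet became 87 with the replicate block, 744 with trend and robust settings, 609 in the upper 60 percent, 267 with the factor only, 345 with log2(value + 16), 0 with all probe sets, and 0 to 27 without 1 array. The 0 of CR-s minus Con-s became 66 with trend and robust settings and 16 in the upper 60 percent. The 3 of CR-l minus Con-l (33.3% higher) became 24 with quantile normalization or cyclic loess (45.8% higher), 7 scaled to the pan-neuronal list (14.3% higher), 469 with trend and robust settings, 249 in the upper 60 percent, 143 with log2(value + 16), 10 with array weights, 0 with the replicate block, all probe sets or the compared arrays only, and 0 to 3 without 1 array. The 2 of CR-l minus Con-s became 5 scaled to the pan-neuronal list, where 40.0% were higher instead of 50.0%, 213 with trend and robust settings, 103 in the upper 60 percent, 42 with log2(value + 16), 8 with array weights, 0 with the replicate block or all probe sets, and 0 to 1 without 1 array. The other 4 comparisons had 0 to 1 without 1 array. An interaction cannot be fitted with the compared factor only. Leaving out an array uses fewer samples, and testing all probe sets adjusts over more features; the cause of the other changes was not tested. The replicate block changed no other call of Oxt or Avp.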
